A study of Mus musculus with 9 samples.

Results

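The enzymes described here catalyse steps of the tricarboxylic acid (TCA) cycle on either side of fumarate: Fh1, Sdha, Sdhb, Mdh1, Mdh2, Cs, Idh3a, Ogdh and Suclg1. They were found by their gene symbol in the deposited murine table, which holds 9 of these 9 genes among 41388 genes in all. The TCA cycle oxidises acetyl groups in the mitochondrial matrix and hands electrons to the respiratory chain, and its intermediates are also drawn off for biosynthesis. Succinate dehydrogenase oxidises succinate to fumarate, fumarate hydratase adds water to give malate, and malate dehydrogenase returns malate to oxaloacetate. Dimethyl fumarate (DMF) is the dimethyl ester of fumarate, a reactive compound that can modify thiols of proteins and of glutathione (GSH), the main soluble thiol of cells.

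RNA-Seq was performed on murine Tc17 cells, which are CD8+ T cells cultured to produce IL-17. Naive CD62L+CD44-CD8+ T cells from lymph nodes and spleens of C57BL/6 mice, aged 8 to 12 weeks per the methods, were activated through CD3 and CD28. All cultures ran for 2 days with 50 U/ml IL-2, 0.5 ng/ml TGF-β, 30 ng/ml IL-6 and an antibody to IFN-γ. The groups were 0.2% DMSO alone (Ctrl), 20 µM DMF, and 20 µM DMF with 50 µM GSH (DMF + GSH), each with 3 libraries. No group with GSH alone was analysed here. Replicate 1 of each group was prepared in batch 1, and replicates 2 and 3 in batch 2. The labels do not say whether replicates came from separate mice or cultures, so that p-values measure only the spread between these libraries.

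The libraries held 7671772 to 14511926 reads assigned to genes, the smallest being Ctrl replicate 3. The members rested on 653 to 5973 reads per library, at which counting alone gives a coefficient of variation of 3.91% to 1.29%. The CD8+ T cell markers (5 of 5 detected at a mean normalized count of at least 10) summed to 21484 to 26446 normalized counts in Ctrl, 21759 to 26588 with DMF and 21456 to 28119 with DMF + GSH. Within this sum Cd3g averaged 3514, 2412 and 3733 in these groups, Cd3d 2712, 2134 and 2818, Cd3e 4779, 4070.0 and 4960.1, Cd8a 10146, 12601 and 10859, and Cd8b1 3248, 3372 and 3274. Il17a averaged 397, 105 and 368 normalized counts and Il17f averaged 3522, 1425 and 3692. Of the 3 CD4+ T cell markers, Cd4 averaged 1.97, 1.03 and 2.61 and Cd40lg 3.92, 3.46 and 3.55, whereas the sum over the list, carried by Foxp3 (756, 1938 and 659), was 566 to 916, 1038 to 2460 and 468 to 943. Of the 3 NK cell markers, Ncr1 and Klrb1c were listed at 0 with DMF and averaged 0.693 and 1.95 in Ctrl, and the sum, carried by Eomes, was 15.8 to 54.0, 123 to 139 and 21.5 to 57.2. The 5 B cell markers summed to 72.5 to 95.7, 59.0 to 81.3 and 60.3 to 95.7, of which Ms4a1 was at 1.66, 0 and 1.47, and of 3 erythroid markers Hbb-bs and Hba-a1 were at 0. The myeloid markers (5 of 6 matched by symbol) summed to 209 in Ctrl replicate 3, against 2.08 to 20.3 in the other libraries. In bulk RNA, fewer cells of a type and less RNA per cell cannot be told apart, and the part of these marker levels in the results that follow was not tested.

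The first question was whether transcripts of the cycle differ when Tc17 cells meet a fumarate ester. Values are normalized counts, that is, reads per gene divided by a factor for the size of the library. Groups were compared with limma on log2(normalized count + 1) over 11599 genes, with the preparation batch in the model and Benjamini-Hochberg adjustment, and a gene was called at an adjusted p under 0.05. A log2 fold change (log2FC) is the difference between groups on that log2 scale. With DMF, 4 of the 9 members were higher than in Ctrl (Idh3a, Mdh2, Fh1 and Cs), by 1.15- to 1.36-fold, and 0 were lower. Over all genes tested, 28% were called in either direction and 14.6% were higher with DMF. Among 3247 genes averaging 900 or more, a threshold chosen after the members' levels were known, 21.4% were higher. The median log2FC of the members was 0.20, against 0.01 over all genes tested and 0.04 over the 3247 genes. None of the 9 members passed a stricter cut, which the study used for a heatmap, namely an adjusted p below 0.01 and a log2FC beyond 0.75 in either direction, which 2.89% of all genes passed.

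Libraries that share a replicate number also shared deviations from the means of their groups. A fit in which this number replaced the batch (replicate block) is therefore given beside the members whose call it altered, and per list for the genes around the cycle. With the block, 6 of 9 members were higher with DMF, Sdhb and Suclg1 in addition, while 45% of all genes were called and 23.7% were higher, as were 33.8% of the 3247 genes averaging 900 or more. In 5 members, the 3 DMF libraries lay above all 3 Ctrl libraries (Fh1, Sdhb, Mdh2, Cs and Idh3a), as did 21.6% of all genes tested.

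**Figure D1:**
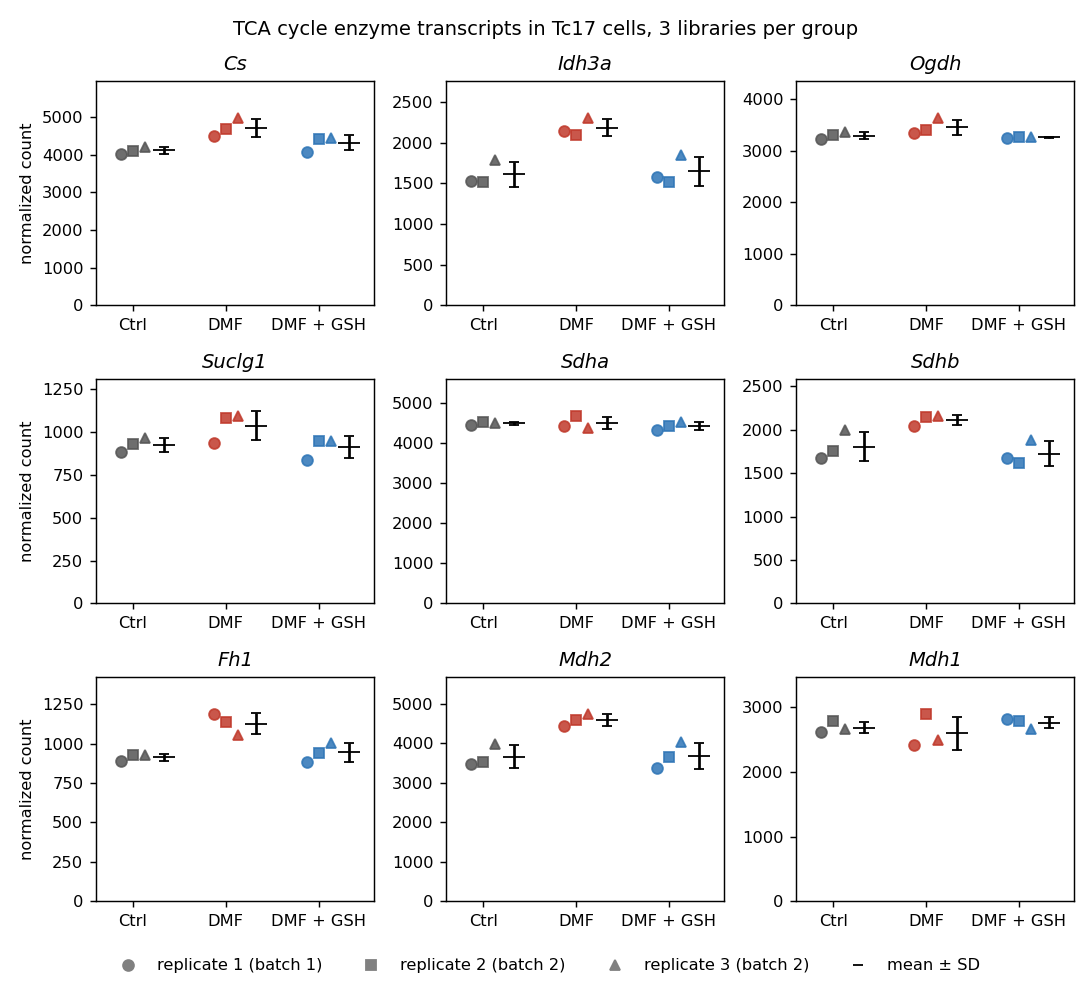
Normalized counts (linear axes from 0) of the 9 members in each library, with replicate numbers as symbols and the mean ± SD of each group (n = 3) beside them. The DMF points of Fh1, Sdhb, Mdh2, Cs and Idh3a lie above all Ctrl points, whereas those of Sdha and Mdh1 overlap them.

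Fh1 encodes fumarate hydratase, which converts fumarate to malate in the mitochondrion and, as a form without the import signal, in the cytosol. The gene (ENSMUSG00000026526) is protein-coding and lies on the reverse strand of chromosome 1 of GRCm38, from 175600374 to 175625635. In the order of the replicate numbers, the Ctrl libraries measured 888, 925 and 929 normalized counts, the DMF libraries 1185, 1139 and 1055, and the DMF + GSH libraries 882, 943 and 1006. All 3 DMF libraries were above all other libraries, and the Ctrl and DMF + GSH libraries overlapped. The mean rose from 914 ± 22.8 (SD, n = 3) in Ctrl to 1126 ± 65.9 with DMF, a log2FC of 0.30 (SE 0.0756, adjusted p = 0.0183, limma), or 1.23-fold. The difference to Ctrl was 0.42, 0.30 and 0.18 in replicate numbers 1, 2 and 3 on the log2 scale. The gene Kmo overlaps Fh1 on the opposite strand and averaged 3.29 normalized counts.

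The bases upstream of Fh1 and Cs are shown because both genes rose with DMF and each window lies outside the annotated span of its own gene. Whether exons of other genes reach into these windows was not checked. They are the 250 bases before the RefSeq start site (GRCm38.p6), 5′ to 3′ on the strand of the gene. Capitals mark CCAAT boxes, read as CCAAT or as ATTGG on the other strand. The Fh1 window is chr1:175625636-175625885, reverse strand, and the Cs window is chr10:128337477-128337726, forward strand.
Fh1: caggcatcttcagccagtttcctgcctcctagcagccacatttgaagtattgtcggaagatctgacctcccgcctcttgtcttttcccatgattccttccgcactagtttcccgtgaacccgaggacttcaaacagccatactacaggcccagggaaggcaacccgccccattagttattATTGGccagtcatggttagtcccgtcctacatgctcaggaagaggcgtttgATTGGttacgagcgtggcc
Cs: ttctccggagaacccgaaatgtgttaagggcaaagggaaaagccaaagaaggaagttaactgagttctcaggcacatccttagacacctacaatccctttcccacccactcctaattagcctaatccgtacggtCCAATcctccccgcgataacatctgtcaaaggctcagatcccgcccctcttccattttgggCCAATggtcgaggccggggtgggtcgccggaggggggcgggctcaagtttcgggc
The Fh1 window holds this motif at 70 to 66 and at 19 to 15 bases before the start, and the Cs window at 116 to 112 and at 55 to 51 bases. RefSeq windows were found for 8 of the 9 members, Idh3a being the exception. On both strands CCAAT occurred in 33.9% of all 32841 windows and in 9 of the 13 windows of these members. The 9 windows belonged to 6 of the 8 members: Fh1, Cs, Sdhb, Sdha, Mdh1 and Ogdh. Ogdh has several windows, some of them overlapping, and so had more chances of a match with any motif. The motif was thus present in members that rose and in members that were not called, and a match is a description of the letters, not a binding site. The cyclic AMP response element TGACGTCA, in 1.55% of all windows, occurred in 4 of the 13. These were that of Mdh2, at 127 to 120 bases before the start, and windows of Ogdh. The E-box CACGTG, in 6.02% of all windows, occurred in 3 of the 13, all of Ogdh. CCGGAAG (ETS), TGACNNNGC (antioxidant response element) and AAGGTCA (ERR half-site) were found in 0 of the 8 members' windows, against 6.91%, 10.2% and 4.08% of all windows. These motifs were searched on both strands, each by its own letters.

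Succinate dehydrogenase, which makes fumarate from succinate, is complex II of the respiratory chain. Sdha encodes its flavoprotein and Sdhb its iron-sulphur subunit. Sdhb (ENSMUSG00000009863, chromosome 4, 140961203 to 140979193, forward strand) measured 1676, 1750.1 and 1992 normalized counts in the Ctrl libraries, 2048, 2146 and 2154 in the DMF libraries and 1670.1, 1615 and 1886 after DMF + GSH. The DMF libraries were above all others, by a narrow margin over Ctrl replicate 3. Sdhb averaged 1806 ± 165 in Ctrl and 2116 ± 59.1 with DMF, a log2FC of 0.23 (SE 0.0783) with an adjusted p of 0.0510 in limma, which missed the call, and of 0.00295 with the replicate block. Sdha (ENSMUSG00000021577, chromosome 13, 74322254 to 74350280, reverse strand) measured 4455, 4530.4 and 4489 in the Ctrl libraries, 4431, 4665 and 4384 in the DMF libraries and 4330.4, 4435 and 4519 after DMF + GSH. All groups of Sdha overlapped. Its means were 4492 ± 37.6, 4493 ± 150 and 4428 ± 94.6, and the log2FC with DMF was -0.00, with a 95% interval of -0.13 to 0.13, and it was not called in either fit.

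Malate dehydrogenase occurs as a mitochondrial enzyme, encoded by Mdh2, and as a cytosolic enzyme, encoded by Mdh1, which together carry reducing equivalents in the malate-aspartate shuttle. Mdh2 (ENSMUSG00000019179, chromosome 5, 135778480 to 135790398, forward strand) measured 3469, 3536 and 3992 normalized counts in the Ctrl libraries, 4431, 4596 and 4738 in the DMF libraries and 3374, 3656 and 4039 after DMF + GSH. All DMF libraries exceeded all others. The mean rose from 3665 ± 284 to 4588 ± 154, a log2FC of 0.33 (SE 0.0710, adjusted p = 0.0115, limma), or 1.25-fold. Mdh1 (ENSMUSG00000020321, chromosome 11, 21556787 to 21572367, reverse strand) measured 2604, 2777 and 2655 in the Ctrl libraries, 2409, 2883 and 2485 in the DMF libraries and 2819, 2781 and 2657 after DMF + GSH. The DMF libraries included the lowest and the highest of all 9, so that the groups overlapped. The log2FC of Mdh1 with DMF was -0.05, with a 95% interval of -0.22 to 0.12 and an adjusted p of 0.639 (limma). Wdpcp overlaps Mdh1 on the opposite strand and averaged 38.6 normalized counts.

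Upstream in the cycle, Cs encodes citrate synthase, which joins acetyl-CoA to oxaloacetate. Cs (ENSMUSG00000005683, chromosome 10, 128337734 to 128362479, forward strand) measured 4012, 4102 and 4212 normalized counts in the Ctrl libraries, 4487, 4687 and 4957 in the DMF libraries and 4078.5, 4403 and 4446 after DMF + GSH. All DMF libraries were above all others. The mean rose from 4109 ± 100.3 to 4710.3 ± 236, a log2FC of 0.20 (SE 0.0580, adjusted p = 0.0321, limma), or 1.15-fold, the smallest change among the members called. Idh3a encodes the catalytic subunit of the NAD-dependent isocitrate dehydrogenase, which makes 2-oxoglutarate. Idh3a (ENSMUSG00000032279, chromosome 9, 54586334 to 54604661, forward strand) measured 1529.8, 1515 and 1787 in the Ctrl libraries, 2148, 2098 and 2297 in the DMF libraries and 1578, 1517 and 1850.3 after DMF + GSH. The lowest DMF library was above the highest of the other 2 groups. The mean rose from 1611 ± 153 to 2181 ± 103, a log2FC of 0.44 (SE 0.0918, adjusted p = 0.0102, limma), or 1.36-fold, the largest change among the members.

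Ogdh and Suclg1 act between 2-oxoglutarate and succinate. Ogdh encodes the E1 subunit of the 2-oxoglutarate dehydrogenase complex. Ogdh (ENSMUSG00000020456, chromosome 11, 6291633 to 6356642, forward strand) measured 3221, 3299 and 3359 normalized counts in the Ctrl libraries, 3351, 3394 and 3626 in the DMF libraries and 3246, 3264 and 3267 after DMF + GSH. Ctrl and DMF overlapped, with a log2FC of 0.07 (95% interval -0.06 to 0.20, adjusted p = 0.391, limma). Suclg1 encodes the alpha subunit of succinyl-CoA synthetase, which releases succinate. Suclg1 (ENSMUSG00000052738, chromosome 6, 73248382 to 73276911, forward strand) measured 882, 929 and 964 in the Ctrl libraries, 938, 1080.3 and 1091 in the DMF libraries and 837, 947 and 947 after DMF + GSH. DMF replicate 1 lay within the range of Ctrl and the other 2 DMF libraries above it. The log2FC was 0.16 (SE 0.0626) with an adjusted p of 0.0794 in limma, which missed the call, and of 0.0369 with the replicate block.

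**Figure D2:**
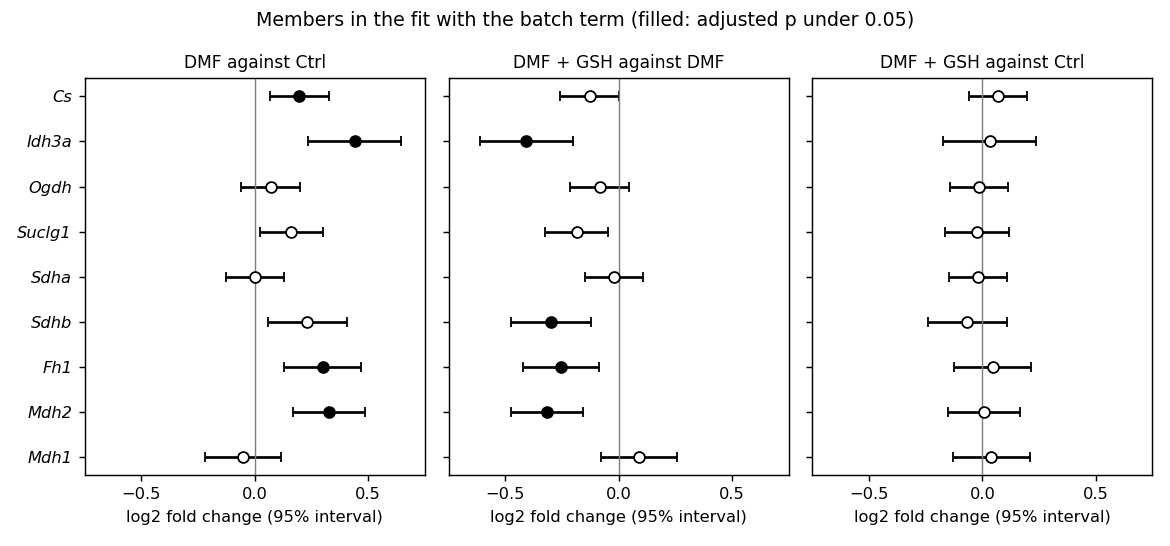
Log2 fold changes of the 9 members with 95% intervals in the 3 comparisons, in the fit with the batch term and in the order of the cycle from Cs to Mdh1. Filled points passed an adjusted p of 0.05: 4 of 9 above 0 for DMF against Ctrl, 4 of 9 below 0 for DMF + GSH against DMF, and 0 for DMF + GSH against Ctrl.

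The calls of DMF against Ctrl depended on single libraries in the fit with the batch term, for the members as for all genes. Of the members, 0 were called without Ctrl replicate 1 or without DMF replicate 1, where 5.41% and 0.948% of all genes were called. Without Ctrl replicate 2 it was 1 (Idh3a) and without DMF replicate 3 also 1 (Fh1), at 10% and 8.22% of all genes. The log2FC themselves moved less: without 1 library they lay between 0.38 and 0.51 for Idh3a, 0.28 and 0.37 for Mdh2, 0.23 and 0.36 for Fh1, and 0.17 and 0.22 for Cs. Without Ctrl replicate 3, the library with the high myeloid sum, 5 were called, at 32.7% of all genes. With the replicate block, 5 or 6 members were called whichever library was left out, at 35.4% to 47.1% of all genes.

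The second question was what the members did when the thiol GSH was added to DMF. With DMF + GSH, 4 of the 9 members were lower than with DMF alone (Idh3a, Mdh2, Sdhb and Fh1) and 0 were higher, while 22.3% of all genes were called and 12.4% were lower. Among the 3247 genes averaging 900 or more, 18.7% were lower. Idh3a fell from 2181 ± 103 to 1648 ± 178 normalized counts (SD, n = 3), a log2FC of -0.41 (SE 0.0918, adjusted p = 0.0162, limma). Mdh2 fell to 3689.7 ± 334 (log2FC -0.32, adjusted p = 0.0160, limma), Sdhb to 1724 ± 143 (log2FC -0.30, adjusted p = 0.0261, limma) and Fh1 to 944 ± 62.0 (log2FC -0.25, adjusted p = 0.0386, limma). In Fh1 the difference was -0.42, -0.27 and -0.07 in replicate numbers 1, 2 and 3. Cs was at 4309 ± 201, with a log2FC of -0.13 and an adjusted p of 0.134, and Suclg1 at 911 ± 63.5, with a log2FC of -0.19 and an adjusted p of 0.0580 (limma). Both were called with the replicate block (adjusted p = 0.0441 and 0.0196), in which 6 members were lower, against 21.6% of all genes and 31.9% of the 3247 genes averaging 900 or more, and 41.5% of all genes were called in either direction. Ogdh (log2FC -0.08), Sdha (-0.02) and Mdh1 (0.09) were not called in either fit, with adjusted p of 0.313, 0.821 and 0.410 in limma with the batch term.

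In 6 members, all DMF + GSH libraries lay below all DMF libraries (Fh1, Sdhb, Mdh2, Cs, Idh3a and Ogdh), as did 20.5% of all genes tested. The median log2FC of the members was -0.19, against -0.00 over all genes and -0.03 over the 3247 genes. In the fit with the batch term, 0 members were called without DMF replicate 1, DMF replicate 3, DMF + GSH replicate 1 or DMF + GSH replicate 2, at 0.129%, 0.922%, 0.0862% and 1.23% of all genes. Without any other library, 3 or 4 members were called, at 15.1% to 26.7% of all genes. With the replicate block and without 1 library, 4 to 6 were called, at 30.9% to 42% of all genes in either direction. This comparison uses the same DMF libraries as that of DMF with Ctrl, so that the opposite signs of the 2 comparisons are not independent.

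DMF + GSH was also compared with Ctrl directly. The log2FC of the members ranged from -0.07 (Sdhb) to 0.07 (Cs), with 95% intervals between -0.24 and 0.24, and their median was 0.01. In limma 0 of 9 members and 0 of 11599 genes were called, and 0 members but 222 genes had an unadjusted p under 0.05. edgeR and DESeq2 on the recovered reads also called 0 genes, and the replicate block called 4 genes (0.0345%), none of them a member. No member had groups that did not overlap, against 2.08% of genes with all DMF + GSH libraries above Ctrl and 2.39% with all below. These intervals do not show that the levels were equal. For Idh3a, they leave room for a log2FC from -0.17 to 0.24, and for Fh1 from -0.12 to 0.21.

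Levels were next compared between members per kilobase of exon, since longer transcripts collect more reads. The length used joins all annotated exons of a gene and can exceed that of the transcripts present, so the order holds for this length. In Ctrl, Sdha was highest at 1089 ± 9.11 normalized counts per kilobase (SD, n = 3), followed by Mdh1 at 1043 ± 34.5 and Mdh2 at 1029 ± 79.8. Neighbours among these 3 overlapped. Below them came Sdhb (807 ± 73.8), Cs (711 ± 17.4), Ogdh (604 ± 12.7), Idh3a (318 ± 30.2), Fh1 (269 ± 6.72) and Suclg1 (200.4 ± 8.88), each without overlap with the next. Fh1 and Suclg1 were thus the members with the lowest transcript levels in each group by this measure. With DMF, Mdh2 was first at 1288 ± 43.1 and lay above Sdha (1089 ± 36.4) in all libraries, whereas with DMF + GSH the 3 leading members overlapped again at 1073 ± 22.9 (Sdha), 1072 ± 32.9 (Mdh1) and 1036 ± 93.7 (Mdh2). Below the leading members, the order was the same in the 3 groups, although Sdhb overlapped Mdh1 with DMF and Cs with DMF + GSH. These levels compare transcripts and not enzyme amounts.

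Members that differed from their partners were examined by the log2 ratio of normalized counts within each library, in which the library factor cancels. The 4 ratios were chosen after their values had been seen. Sdhb relative to Sdha, subunits of one complex, averaged -1.32 ± 0.13 (SD, n = 3) in Ctrl, -1.09 ± 0.05 with DMF and -1.36 ± 0.10 with DMF + GSH. The DMF libraries lay between -1.12 and -1.02 and did not overlap Ctrl, between -1.41 and -1.17. Mdh2 relative to Mdh1 averaged 0.45 ± 0.12, 0.83 ± 0.14 and 0.42 ± 0.17. Idh3a relative to Idh3b, which encodes another subunit of the same enzyme, averaged 0.00 ± 0.20, 0.40 ± 0.10 and 0.07 ± 0.17, and relative to Idh3g 0.17 ± 0.12, 0.73 ± 0.14 and 0.31 ± 0.22. All 4 ratios were higher with DMF than in Ctrl in each of the 3 libraries and lower again with DMF + GSH than with DMF. Each of these differences had p = 0.10 in a two-sided exact permutation test, which did not pair libraries by replicate number. This is the smallest p that 3 against 3 libraries allow, and it was 0.15 after Benjamini-Hochberg adjustment over 12 tests. Because the ratios were chosen with their values known, these p-values decide nothing. Of single genes, 21.6% had all DMF libraries above Ctrl, and 20.5% had all DMF + GSH libraries below DMF. The share among other ratios was not counted, and both Idh3 ratios share Idh3a. Between DMF + GSH and Ctrl the exact p ranged from 0.50 to 0.90.

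**Figure D3:**
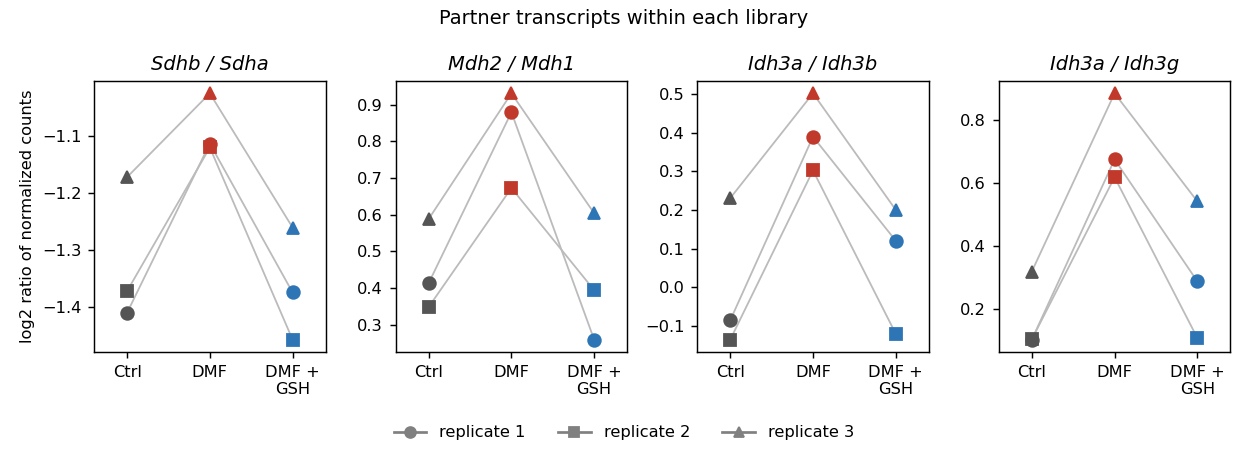
Log2 ratios of normalized counts of partner transcripts within each library, with grey lines joining libraries of the same replicate number. Each panel has its own axis, which does not start at 0. In all 4 ratios the 3 DMF points lie above the Ctrl and the DMF + GSH points.

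Genes around the cycle were taken from 6 lists with 50 genes, of which 47 reached the minimum level (Me1, Me3 and Pdk4 did not). With DMF, 11 of 47 were higher and 1 was lower (12 in all, against 28% of all genes, 14.6% higher and 13.3% lower). With the replicate block, 22 were higher and 4 lower, at 23.7% and 21.4% of all genes. The median log2FC over the lists was 0.17. With DMF + GSH against DMF, 7 of 47 were lower and 0 higher, against 12.4% of all genes lower. With the block, 19 were lower and 3 higher (Idh1, Pdk1 and Pdk2, with log2FC of 0.33, 0.26 and 0.77), against 21.6% and 19.9% of all genes. With DMF + GSH against Ctrl 0 of 47 were called.

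Among the other enzymes and subunits of the cycle, 2 of 9 were higher with DMF (14.6% of all genes), and 6 of 9 with the replicate block (23.7%). Suclg2, a beta subunit of succinyl-CoA synthetase, rose by a log2FC of 0.35 (SE 0.117, adjusted p = 0.0479, limma), and Dld, the E3 subunit shared by the 2-oxoglutarate and pyruvate dehydrogenase complexes, by 0.23 (adjusted p = 0.0361, limma). Another 6 genes of this list, from a log2FC of -0.11 (Idh3g) to 0.23 (Dlst), were not called with the batch term. With the block, Dlst, Sdhc and Sdhd were called higher (adjusted p = 0.00274, 0.0410 and 0.0434, limma). Dlst, the E2 subunit of the 2-oxoglutarate dehydrogenase complex, was lower with DMF + GSH than with DMF (log2FC -0.27, adjusted p = 0.0343, limma).

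Among the isoenzymes and malic enzymes, 1 of 5 was called, lower, against 13.3% of all genes. With the block 1 was lower and 1 higher, against 21.4% and 23.7% of all genes. Idh1, the cytosolic NADP-dependent isocitrate dehydrogenase, fell from 188, 207 and 172 normalized counts in Ctrl to 127, 158 and 114 with DMF, a log2FC of -0.51 (SE 0.159, adjusted p = 0.0384, limma). It was the only gene of all lists called lower with the batch term. Ogdhl, a relative of Ogdh, averaged 25.3 normalized counts with a log2FC of 0.26 (SE 0.253, adjusted p = 0.472, limma). Of the genes for succinate dehydrogenase assembly 0 of 4 were called, against 28% of all genes. The largest log2FC were 0.18 for Sdhaf2 and -0.09 for Sdhaf4 (listed under an older symbol), with adjusted p of 0.0700 and 0.733 (limma). With the block 1 of 4, Sdhaf2, was higher (adjusted p = 0.0360, limma), against 23.7% of all genes.

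Among the genes for the entry of pyruvate, 2 of 12 were called, both higher, against 14.6% of all genes. With the block 3 were higher and 2 lower, against 23.7% and 21.4% of all genes. Pcx, the pyruvate carboxylase that forms oxaloacetate, had the largest rise of all lists. It measured 282, 212 and 360 normalized counts in the Ctrl libraries, 737, 417 and 656 in the DMF libraries and 228, 230.2 and 382 after DMF + GSH, a log2FC of 1.07 with DMF (SE 0.273, adjusted p = 0.0188, limma) and of -1.11 between DMF + GSH and DMF (adjusted p = 0.0214, limma). Dlat, the E2 subunit of the pyruvate dehydrogenase complex, rose by 0.39 (SE 0.110, adjusted p = 0.0281, limma). Pdk2, a kinase that inhibits that complex, had the largest negative log2FC of all lists, -1.02 (SE 0.369), at 96.7, 83.6 and 39.8 normalized counts in Ctrl and 39.1, 39.4 and 24.2 with DMF. Its groups did not overlap, by a margin of less than 1 normalized count, and its adjusted p was 0.0649 in limma and 0.000309 with the replicate block.

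Among enzymes of other reactions that lead to fumarate, 2 of 6 were higher with DMF, both of purine synthesis, against 14.6% of all genes. With the block 4 were higher and 1 lower, against 23.7% and 21.4% of all genes. Adsl, adenylosuccinate lyase, which itself releases fumarate, rose from 1487, 1427 and 1760.4 normalized counts in Ctrl to 2321, 2299 and 2528 with DMF and measured 1392, 1505 and 1810.5 with DMF + GSH. Its log2FC was 0.62 with DMF (adjusted p = 0.00602, limma) and -0.61 between DMF + GSH and DMF (adjusted p = 0.0107, limma). Adss, adenylosuccinate synthase, rose by 0.25 (adjusted p = 0.0366, limma). Adssl1, its relative, had the largest log2FC of the list, 0.67 (SE 0.314), at an average of 46.0 normalized counts, with an adjusted p of 0.134 in limma and of 0.0187 with the block.

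Among the genes of the malate-aspartate shuttle, mitochondrial carriers and their neighbours, 5 of 11 were higher with DMF (14.6% of all genes), and 7 of 11 with the block (23.7%). Got1, the cytosolic aspartate aminotransferase, measured 798, 786 and 921 normalized counts in Ctrl and 1268, 1091 and 1375 with DMF, a log2FC of 0.57 (SE 0.110, adjusted p = 0.00811, limma). Slc25a22, a mitochondrial glutamate carrier, rose by 0.56 (SE 0.0894, adjusted p = 0.00567, limma). Slc25a13, an aspartate-glutamate carrier, and Slc25a1, the citrate carrier, rose by 0.52 and 0.26 (adjusted p = 0.0215 and 0.0404, limma). Got1, Slc25a22, Slc25a13 and Slc25a1 were lower with DMF + GSH than with DMF (log2FC -0.56, -0.53, -0.46 and -0.42). Got2, the mitochondrial aminotransferase, had a log2FC of 0.15 and an adjusted p of 0.254 (limma), and of 0.0336 with the replicate block.

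**Figure D4:**
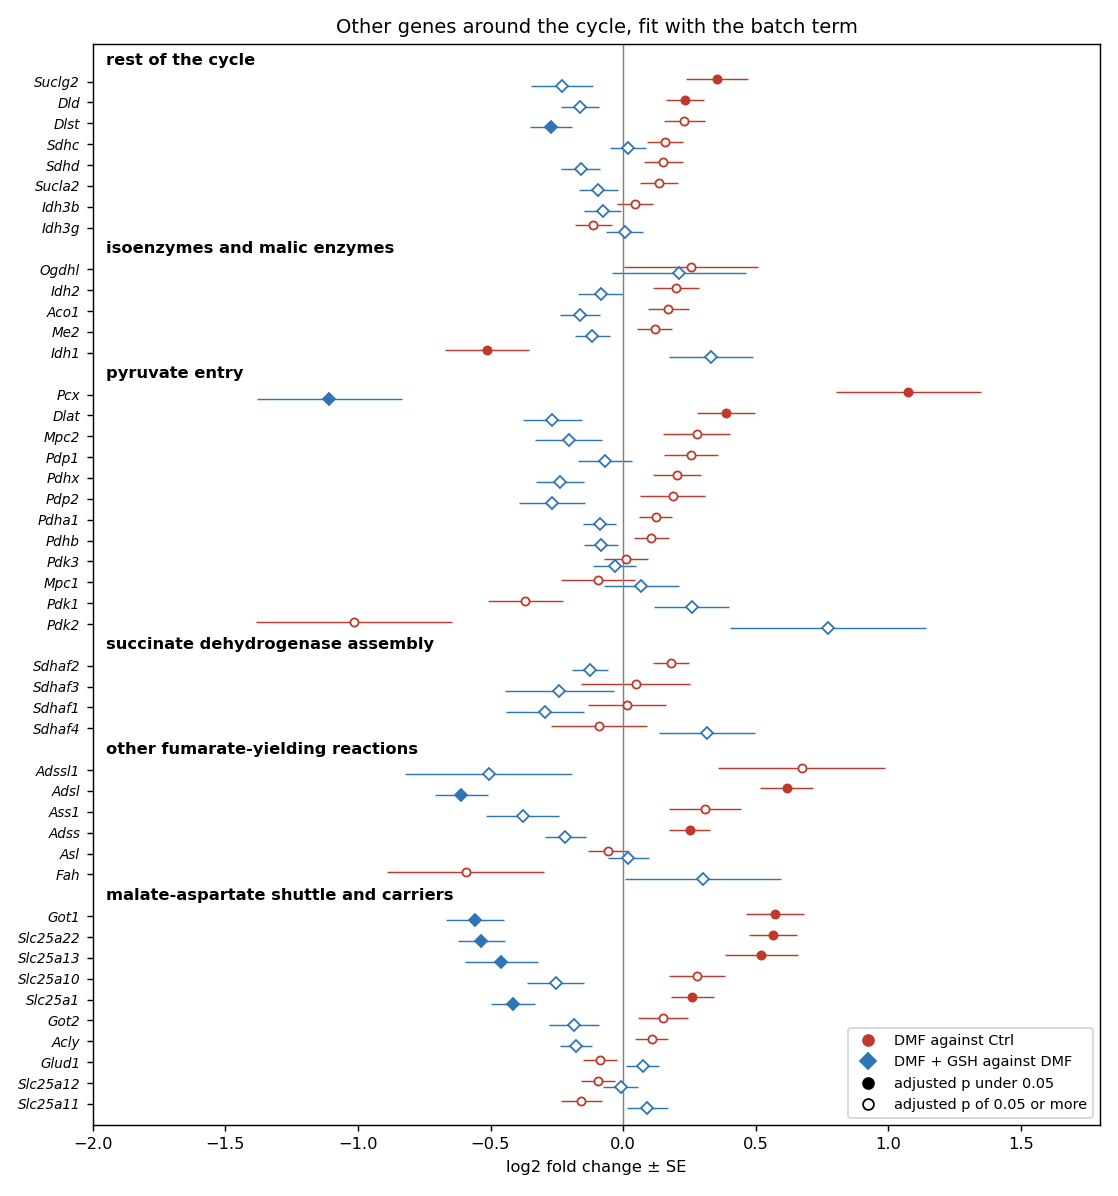
Log2 fold changes ± SE of 45 of the 47 tested genes around the cycle, by list, for DMF against Ctrl (circles) and DMF + GSH against DMF (diamonds), which share the DMF libraries. Filled symbols passed an adjusted p of 0.05 in the fit with the batch term: 11 circles and 7 diamonds.

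The genes whose log2 values followed Fh1 most closely over the 9 libraries, among 8742 genes with a mean of at least 100, were Chchd1, 5031439G07Rik, Tmem115, Scrn2 and Anapc5, with a Pearson correlation of 0.97, 0.97, 0.96, 0.96 and 0.95. Chchd1 averaged 391, 508 and 402 normalized counts in Ctrl, DMF and DMF + GSH, and Anapc5 averaged 5607, 6112 and 5742. These correlations are a description over 9 libraries of 3 groups, which share the differences between groups.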

How the data were processed

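Gene expression was analysed in 9 RNA-Seq libraries, grouped by their labels into Ctrl, DMF and DMF + GSH (3 per group). The authors sequenced single 50 bp reads of poly(A) RNA, aligned them to GRCm38 with STAR 2.4.0b, counted reads per gene and used DESeq2 with the batch in the model. The strand setting of the counting was not stated in the sources read. The deposited signal is the count per gene divided by a factor for its library. The authors' own log2 fold change, test statistic (a score), p-value and adjusted p for Ctrl and DMF were not used. Deposited values were whole multiples of 1 read for 100% of values above 0 (tolerance 0.01), which gave the reads. Values with a mean of at least 10 (11599 of 41388 genes) were tested with limma 3.58.1 in R 4.3.3, as limma-trend. The response was log2(normalized count + 1), and 1 fit held group and batch. This scale slightly understates the change of low genes, and the design had foreseen a count test only for raw counts. On the recovered reads edgeR 4.0.16 called 3276 and DESeq2 1.42.0 3074 genes for DMF against Ctrl, against 3242 by limma. Intervals are at 95%. The replicate numbers are given in the labels, which do not say what libraries of the same number share. Deviations from group means correlated at 0.447 to 0.578 in all 9 same-number pairs of different groups and at -0.47 to -0.0621 otherwise. Since deviations sum to 0 within a group, these ranges are not independent of each other. Positions and exon lengths are from GENCODE vM21, and promoters from RefSeq. Per list, the genes with the 2 largest absolute log2FC with DMF and those called were named, with the 5 genes most like Fh1. Values of some single genes are not reported here, although the counts per list include them. The members and lists were chosen with earlier results of these data known. Alternatives were other pseudocounts (0.5, 4), other minimums (none, 50), quantile normalization or TMM rescaling, the replicate block, a fit without batch, a fit of the 6 compared libraries, both count tests and omission of each library, with and without the block. Scripts were tested on simulated data with 200 changed genes and an assumed spread. The fit with the batch term recovered 25.5% of changes at a log2 effect of 0.35 and 95% at 1.5. A gene that was not called may therefore still differ by a small amount. Tables and plots used pandas 2.3.3, Matplotlib 3.10.9 and NumPy 2.4.6 under Python 3.11.15. CD8+ T cells from patients were not analysed here.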

Additional observations from a re-analysis of the deposited data

How the results depend on the processing

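Under the settings tried, no called member changed its direction. For DMF against Ctrl, 4 members were called in the fit with the batch term, 3 to 5 under the other settings with all libraries except the replicate block, which called 6. The share of all genes called ran from 10.6% with no minimum (3 members) to 32.1% with a minimum of 50 (5 members). Leaving out 1 library gave 0 to 5 (0.948% to 32.7% of all genes), and 5 to 6 with the block (35.4% to 47.1% of all genes). For DMF + GSH against DMF the count was 4, then 3 to 4 (7.93% of all genes with no minimum to 26% with a minimum of 50), and 6 with the replicate block. Without 1 library it was 0 to 4 (0.0862% to 26.7% of all genes), and 4 to 6 with the block (30.9% to 42% of all genes). For DMF + GSH against Ctrl it was 0 under each setting. Of the 47 genes around the cycle, 12 were called for DMF against Ctrl, and 26 with the replicate block. Of all genes, 28% and 45% were called in these fits. Leaving out 1 library gave 0 to 18 (0 for DMF replicate 1, 2 for Ctrl replicate 1, 3 for Ctrl replicate 2 and for DMF replicate 3, 7 for DMF + GSH replicate 1, 18 for Ctrl replicate 3), and with the block 18 to 27 (18 for Ctrl replicate 2 and for DMF replicate 2, 20 for Ctrl replicate 1 and for DMF replicate 1, 19 for Ctrl replicate 3, 22 for DMF replicate 3, and 27, 21 and 22 for DMF + GSH replicates 1, 2 and 3). The share of all genes called without 1 library ran from 0.948% (DMF replicate 1) to 32.7% (Ctrl replicate 3). With the block it ran from 35.4% (DMF replicate 1) to 47.1% (DMF + GSH replicate 1). Quantile normalization gave a median log2FC of the members of -0.15 for DMF + GSH against DMF and of 0.016 for DMF + GSH against Ctrl. The latter was 0.0084 in the fit with the batch term, -0.027 to 0.036 without 1 library, and with the block -0.00747, 0.0260, -0.0126 and -0.0156 without Ctrl replicates 2 and 3 and DMF + GSH replicates 1 and 3. The cause of these differences was not tested. The block changed no call of a member other than those of Sdhb, Suclg1 and Cs.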
